A study of Mus musculus with 4 samples.

Results

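The genes described here are the WNT ligands, their receptors, the extracellular antagonists, the cytoplasmic and nuclear mediators and the feedback genes of the pathway, as read on Affymetrix Mouse Genome 430 2.0 arrays. They were picked by gene symbol, from a list drawn up with earlier results of these data known. Only probe sets that the platform annotation gives exactly 1 symbol were used. The selection came to 89 probe sets of 45 genes, among 24679 such probe sets of 13320 genes. Further genes of these families were not analysed here. Total RNA of 4 mouse cerebellar tumors was measured, with 1 array per tumor. All 4 carry the genotype label Chd7-het, on a mixed CD1xC57BL/6 background, and are called tumors 1, 2, 4 and 5 after their sample numbers. Chd7 encodes a chromatin remodelling ATPase. The labels name no other allele, no event that started the tumors and neither age nor sex, and neither normal cerebellum nor another genotype is among the samples. The comparison open to these data is therefore of each tumor with the other 3.

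WNT proteins are secreted lipid-modified ligands that bind Frizzled receptors together with the coreceptors LRP5 and LRP6. Binding stops a cytoplasmic complex of AXIN and APC from marking beta-catenin for breakdown, and beta-catenin then acts with TCF and LEF factors on target genes, of which Axin2, Nkd1, Lef1, Znrf3 and Apcdd1 feed back on the pathway. In the cerebellum WNT signals are known from midbrain and hindbrain patterning and from the maturation of granule neurons, and active beta-catenin defines a subgroup of human medulloblastoma that is distinct from the SHH subgroup.

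Signals are log2 values of MAS5, an Affymetrix algorithm that reduces the probes of a set to 1 value separately for each array. A floor of 5.12 (34.8 on the linear scale) was set, and values under it were treated as not distinguishable from low noise. The share of probe sets above it was 59.1% to 61.3% per array. Of the markers of granule cell progenitors and their lineage 7 of 7, Atoh1, Barhl1, En2, Neurod1, Pax6, Zic1 and Zic2, lay above the floor in every tumor. This is a weak check of the labelled tissue, since 69.2% of all genes did so. In tumor 1 Atoh1 (9.92, against 10.54 to 10.90) and Barhl1 were lowest. By contrast Pax6 (9.78, against 8.26 to 8.82), En2, Neurod1 and Zic2 were highest there. Tumor 1 differed from the rest in its markers. The summed linear signal of 8 Purkinje and inhibitory neuron markers was 3895 in tumor 1, where 7 lay above the floor, and 286.4 to 562.9 in the others, where 3 to 6 did, with Gad2 under it in all. That of 9 mature neuron markers was 6284 against 2740 to 3008 (7 above the floor against 3 to 6, with Grin2c and Slc17a7 under it in all). That of 7 markers of dividing cells, all above the floor in every tumor, was 7055 against 9499 to 10058. In bulk RNA, fewer cells of a type and less RNA per cell cannot be told apart. Levels of different probe sets are not compared below, since probe sets differ in how brightly they read a transcript.

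Read by its brightest probe set, 25 of the 45 genes (55.6%) lay above the floor in all 4 tumors, 7 in some of them and 13 (28.9%) in none. Over all 13320 genes the share above the floor in all 4 tumors was 69.2%, and 22% lay above it in none. Of 89 member probe sets, 45 lay above the floor in all 4 tumors (50.6%, against 61% of all probe sets with 1 symbol). The cytoplasmic components and the feedback genes were read throughout (5 of 5 and 4 of 4 genes), whereas 0 of 3 TCF/LEF factors and 2 of 7 ligands were above the floor in every tumor. A probe set under the floor does not show that its transcript is absent.

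**Figure D1:**
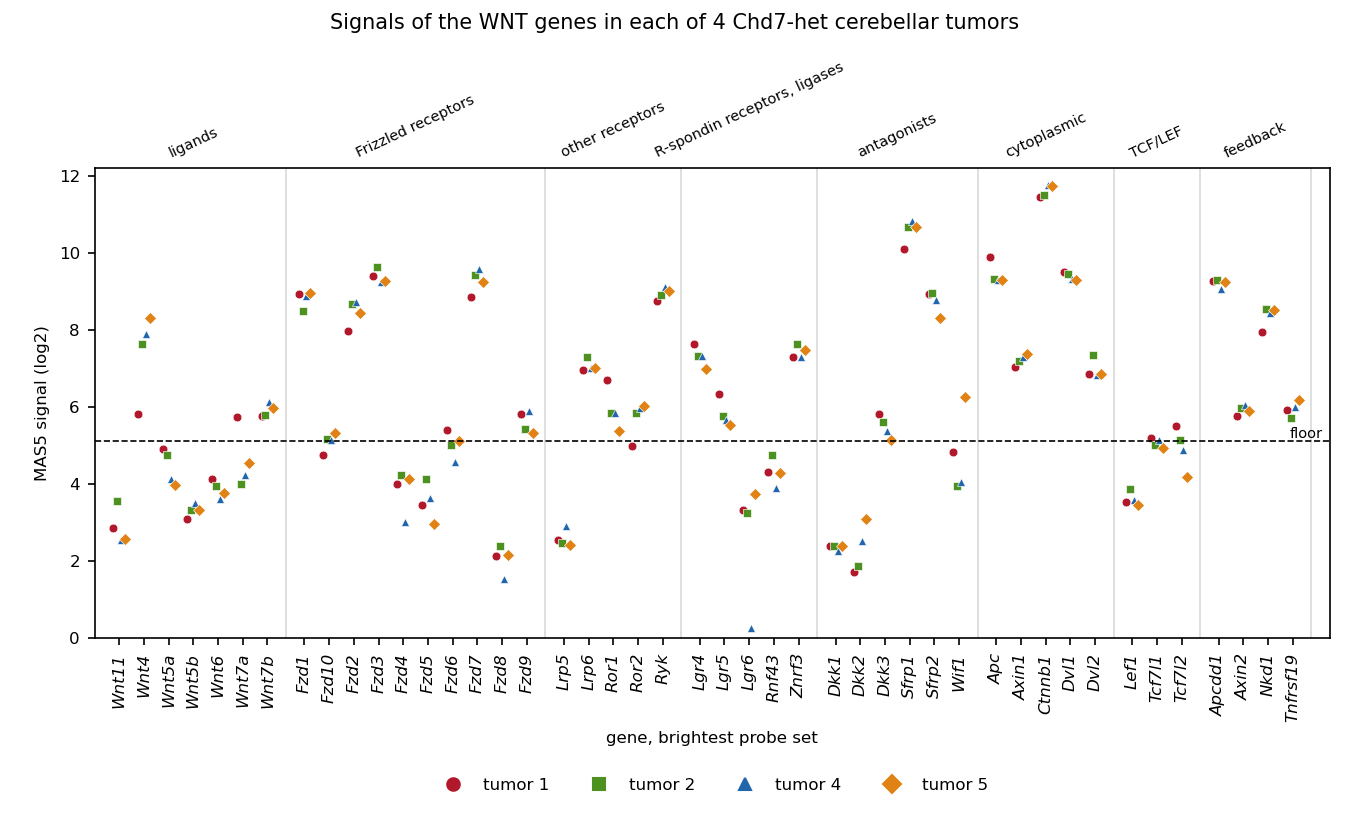
MAS5 signal (log2) of the brightest probe set of each of the 45 WNT genes, grouped by role, with 1 symbol per tumor and the floor of 5.12 dashed. Wnt4 has the widest spread over the tumors among genes above the floor in all 4, from 5.83 in tumor 1 to 8.32 in tumor 5, and Lef1 lies under the floor in every tumor.

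RefSeq promoter windows of the GRCm38.p6 assembly, from 250 bases before to 50 after a gene's start, were found for 30 of the 45 genes. They were searched on both strands for the letters CTTTGAT and CTTTGAA, which TCF and LEF factors are known to bind. Of 40 member windows 4 (10%) held a match, against 8.65% of all 32851 windows. The 4 genes were Dkk1, Wnt11 and Wnt5b, all under the floor in every tumor, and Tnfrsf19, above it in every tumor on its brightest probe set. Printed below are the windows of Wnt4, the gene that differed most between the tumors, of Nkd1, a feedback gene that was lowest in the same tumor, and of Tnfrsf19, with the match in capitals. They lie at chr4:137277385-137277684 on the plus strand, chr8:88527383-88527682 on the plus strand and chr14:61037938-61038237 on the minus strand. Another window of Tnfrsf19, at chr14:61046806-61047105 on the minus strand, held no match and is not printed.
Wnt4: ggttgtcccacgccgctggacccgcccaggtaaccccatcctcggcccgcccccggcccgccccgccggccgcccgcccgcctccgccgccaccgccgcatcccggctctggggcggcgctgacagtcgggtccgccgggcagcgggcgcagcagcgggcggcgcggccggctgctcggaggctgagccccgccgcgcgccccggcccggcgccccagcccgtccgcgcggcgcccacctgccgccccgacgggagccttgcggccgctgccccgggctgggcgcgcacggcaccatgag
Nkd1: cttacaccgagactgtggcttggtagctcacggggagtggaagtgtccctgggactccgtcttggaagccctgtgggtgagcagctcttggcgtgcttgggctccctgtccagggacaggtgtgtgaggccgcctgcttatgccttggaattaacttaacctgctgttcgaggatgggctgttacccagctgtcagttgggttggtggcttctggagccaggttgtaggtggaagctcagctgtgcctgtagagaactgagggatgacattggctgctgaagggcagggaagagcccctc
Tnfrsf19: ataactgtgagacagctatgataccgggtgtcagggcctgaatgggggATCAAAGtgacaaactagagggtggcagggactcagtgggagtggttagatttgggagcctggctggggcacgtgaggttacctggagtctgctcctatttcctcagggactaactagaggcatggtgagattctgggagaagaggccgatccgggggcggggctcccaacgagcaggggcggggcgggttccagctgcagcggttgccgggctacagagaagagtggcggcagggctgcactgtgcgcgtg
The match in the Tnfrsf19 window, ATCAAAG, is CTTTGAT on the opposite strand and begins 202 bases before the start. The Wnt4 window is 84.3% G and C with 51 CpG dinucleotides, the Nkd1 window 58.3% with 6 and the Tnfrsf19 window 60.7% with 13, where the median G and C content of all windows is 52.7%. The Wnt4 and Nkd1 windows held neither of the searched letters, which says nothing about sites elsewhere.

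Each tumor was then set against the other 3. A gene was tested if its mean signal reached the median of all means, 5.87, which kept 22 of the 45 members (40 of 89 probe sets) and 8498 genes in all (63.8%). To pass, a gene needed a limma p, adjusted across the 8498 genes, below 0.05 and at least a 2-fold difference. Wnt4 was lower in tumor 1 and was the sole member that passed, 1 of 22, where 0.247% of all genes passed lower in tumor 1 and 1.05% higher. In tumors 2, 4 and 5 no member passed, and neither did any other gene (0% in each). At an unadjusted p under 0.05, members numbered 7 of 22 in tumor 1 (11.2% of all genes), 2 in tumor 2 (5.84%), 0 in tumor 4 (0.553%) and 1 in tumor 5 (3.6%). Of the 7 in tumor 1, 5 were lower (Wnt4, Fzd2, Fzd7, Nkd1 and Sfrp1) and 2 higher (Ror1 and Apc). The median difference of the members was -0.17 in tumor 1, 0.097 in tumor 2, 0.074 in tumor 4 and 0.0084 in tumor 5, on the log2 scale, beside -0.036, -0.017, 0.0037 and 0.038 over all genes.

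**Figure D2:**
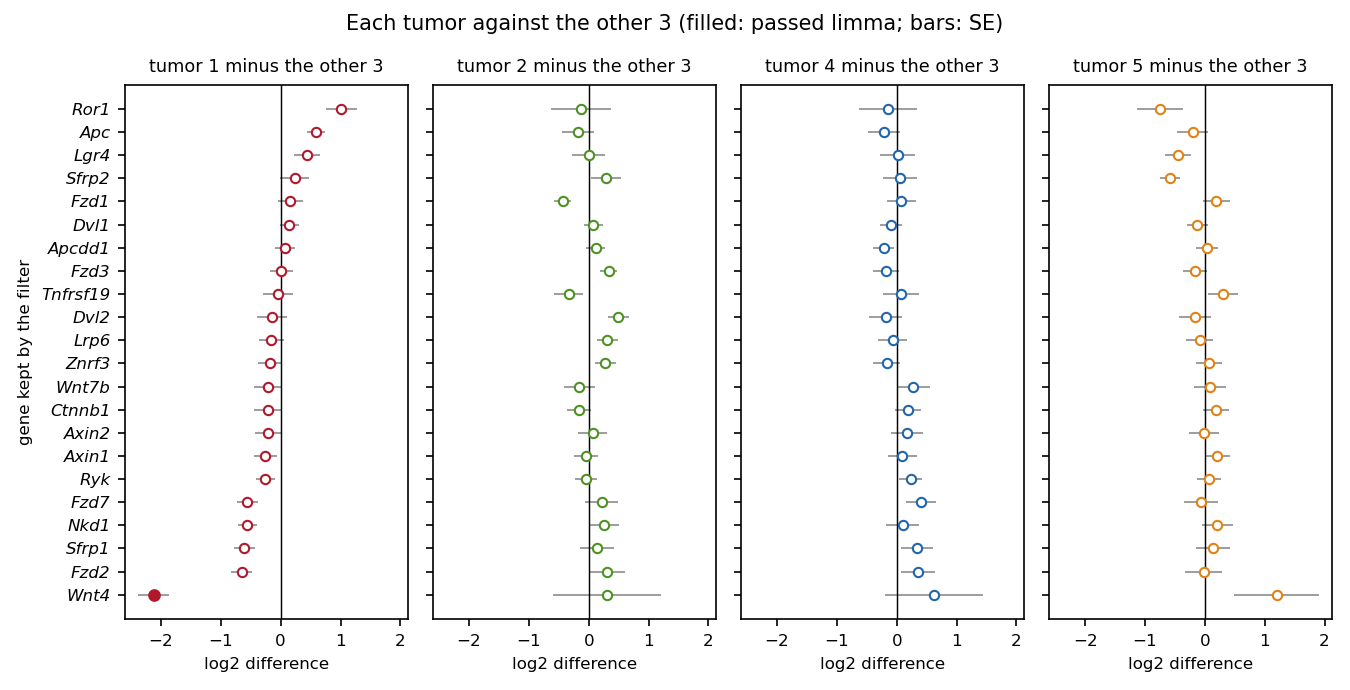
Log2 difference of each tumor from the mean of the other 3, with its limma SE as a bar, for the 22 WNT genes kept by the filter on the mean, in the order of their difference in tumor 1. The filled point, Wnt4 in tumor 1 at -2.12, is the sole member difference that passed, and open points did not pass.

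Among the ligands, Wnt4, known from kidney tubule and female reproductive tract development, stood out. Its brighter probe set, 1450782_at, read 5.83 in tumor 1, 7.64 in tumor 2, 7.88 in tumor 4 and 8.32 in tumor 5. Its other probe set, 1441687_at, read 4.85, 6.65, 6.67 and 7.55 in the same order. Both probe sets were lowest in tumor 1, where the second fell under the floor, and highest in tumor 5, and tumor 1 did not overlap the others in either. The brighter probe set differed by -2.12 in tumor 1 (SE 0.26, adjusted p = 0.00904), 4.35-fold lower than the mean of the other 3 of 7.95 ± 0.34 (SD, n = 3). Tested on its own among all kept probe sets, a check added after the data were seen, 1450782_at passed (adjusted p = 0.0210) and 1441687_at did not (difference -1.84 with tumor 1 at the floor, SE 0.36, adjusted p = 0.0783). With no filter on the mean, where 13320 genes were tested, the Wnt4 call was lost (adjusted p = 0.194) at the same difference. Wnt4 was lower in the tumor in which markers of neurons were higher and those of dividing cells lower (7 of 7, none passing). In tumor 1, 3713 of all 8498 genes tested were higher and 4785 lower. Of the markers tested, those of astrocytes and Bergmann glia were also higher there in 7 of 8 (2 passing). Their summed linear signal was 5981 against 4123 to 4711, while Gfap, the exception, read 6.55 in tumor 1 and 7.40 to 7.69 elsewhere. Markers of fibroblasts, meninges and mural cells were higher in 5 of 5 (0 passing), with a summed signal of 1535 against 738.3 to 1066. Markers of microglia and macrophages were lower in 7 of 9 (1 passing), with 3067 against 3860 to 5561, and Csf1r and Cx3cr1 were not lower. The part of these cells in the Wnt4 difference was not tested. Tumor 5 lay 1.20 above the mean of the other tumors for Wnt4 (SE 0.71, adjusted p = 0.957), a mean that includes tumor 1.

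Of the other 6 ligands, Wnt7b was above the floor in every tumor, Wnt7a in 1 and the rest in none. Wnt7b, a ligand that acts on brain vessels and dendrites, read 5.76, 5.80, 6.12 and 5.98 in tumors 1, 2, 4 and 5, and its second probe set stayed under the floor. Wnt7a, which cerebellar granule neurons make and which remodels the mossy fibers that contact them, read 5.74 in tumor 1 and 4.01, 4.22 and 4.55 in tumors 2, 4 and 5. It therefore lay above the floor in tumor 1 alone, at least 1.53-fold above the others, and did not reach the filter on the mean. Its second probe set, 1447647_at, was under the floor in every tumor (3.46 to 4.26) and also highest in tumor 1. Wnt7a was highest in the tumor with the highest neuronal markers, Gabra6 of mature granule neurons reading 9.33 there and 3.43 to 5.14 elsewhere, and the part of those cells in the Wnt7a signal was not tested. The ligands under the floor in all 4 tumors were Wnt5a, Wnt5b, Wnt6 and Wnt11.

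Of the 10 Frizzled receptors, 5 were above the floor in every tumor, 2 in some and 3 (Fzd4, Fzd5 and Fzd8) in none. Fzd2 read 7.96 in tumor 1 and 8.69, 8.72 and 8.44 in tumors 2, 4 and 5. Fzd7 read 8.86 in tumor 1 and 9.44, 9.58 and 9.23 in the others. Both were lowest in tumor 1 without overlap on these probe sets. Fzd2 was so in each of its 3 probe sets, while a second Fzd7 probe set, under the floor throughout (3.71 to 4.35), was lowest in tumor 5. Neither difference passed: Fzd2 differed by -0.65 (SE 0.18, adjusted p = 0.142) and Fzd7 by -0.56 (SE 0.18, adjusted p = 0.237). Fzd1 was lowest in tumor 2, at 8.49 against 8.88 to 8.96 (difference -0.44, SE 0.14, adjusted p = 0.795). Fzd3, a receptor known for axon guidance through planar cell polarity, had the narrowest range of the Frizzled genes above the floor throughout, from 9.25 to 9.64, and its 3 probe sets above the floor in all tumors differed on the highest tumor. Fzd9 read 5.83, 5.44, 5.89 and 5.34 in tumors 1, 2, 4 and 5, so that tumors 1 and 4 lay above tumors 2 and 5. Fzd6 was above the floor in tumor 1 alone (5.41, against 4.58 to 5.12, tumor 5 lying just under it), and Fzd10 was under it in tumor 1 alone (4.75, against 5.13 to 5.31).

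The receptor tyrosine kinases Ror1 and Ror2, which bind WNT5A and act outside the beta-catenin branch, lay on opposite sides in tumor 1. Ror1 read 6.70 in tumor 1 and 5.85, 5.83 and 5.38 in tumors 2, 4 and 5, while Ror2 read 5.00 in tumor 1 and 5.84, 5.99 and 6.02 in the others. For Ror1 tumor 1 was the highest and for Ror2 the lowest, in both cases without overlap. Ror1 differed by 1.01 (SE 0.26, adjusted p = 0.122), just past 2-fold but short of the test, and its second probe set, under the floor throughout, was likewise highest in tumor 1 (3.82, against 2.72 to 3.10). Without tumor 2 the Ror1 difference was 1.09 and passed, but only tumors 4 and 5 were then left to compare with. Ror2 did not reach the filter on the mean, and in the fit without that filter it was at least 1.78-fold lower in tumor 1 (adjusted p = 0.0994). Ryk, a WNT receptor with an inactive kinase domain, was lowest in tumor 1 (8.75) and highest in tumor 4 (9.12) on its brightest probe set. The Ryk difference in tumor 1 was -0.26 (SE 0.16, adjusted p = 0.637). A second Ryk probe set, 1426388_s_at, was also lowest in tumor 1 (8.40) but highest in tumor 5 (8.90, against 8.84 in tumor 4). The coreceptor Lrp6 spanned 6.95 to 7.30, and Lrp5 was under the floor in every tumor.

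LGR4, LGR5 and LGR6 bind R-spondins, which keep the ubiquitin ligases RNF43 and ZNRF3 from clearing Frizzled receptors. Lgr5, also a WNT target and stem cell marker, read 6.33 in tumor 1 and 5.77, 5.66 and 5.52 in tumors 2, 4 and 5. Lgr4 read 7.64 in tumor 1 and 7.31, 7.33 and 6.97 in the others. Both were highest in tumor 1 and lowest in tumor 5 on these probe sets, while a second Lgr4 probe set, far under the floor, was lowest in tumor 1 (0.77, against 1.63 to 2.83). Neither difference in tumor 1 passed: Lgr4 differed by 0.44 (SE 0.21, adjusted p = 0.521), and Lgr5, outside the filter on the mean, by 0.68 in the fit without it (SE 0.12, adjusted p = 0.238). Znrf3 read 7.30, 7.64, 7.30 and 7.48, with tumor 2 the highest, and Rnf43 and Lgr6 stayed under the floor.

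The antagonists fell into a group read in every tumor (Sfrp1, Sfrp2 and Dkk3), a group under the floor in every tumor (Dkk1 and Dkk2) and Wif1, which was above it in tumor 5 alone. Sfrp1, a secreted Frizzled-like protein that binds WNT and is known as a marker of the SHH subgroup of medulloblastoma, read 10.11 in tumor 1 and 10.67, 10.82 and 10.66 in tumors 2, 4 and 5. Tumor 1 was lowest in each of its 5 probe sets, and the difference of -0.61 did not pass (SE 0.18, adjusted p = 0.184). Sfrp2 was lowest in tumor 5, at 8.31 against 8.92, 8.96 and 8.78 in tumors 1, 2 and 4 (difference -0.58, SE 0.17, adjusted p = 0.957). Dkk3, a divergent member of the Dickkopf family, read 5.82, 5.62, 5.39 and 5.15 in tumors 1, 2, 4 and 5, and its second probe set, with values from 5.58 to 4.93, had the same order of tumors.

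Wif1, which binds WNT ligands outside the cell, read 4.83, 3.96, 4.04 and 6.25 in tumors 1, 2, 4 and 5. Tumor 5 was at least 2.19-fold above the other 3, which all lay under the floor. Wif1 did not reach the filter on the mean. Without the filter it passed in tumor 5 (adjusted p = 9.72e-05), a p that rests on the other 3 tumors sharing the floor value and so having no spread. Outside the members, 2 genes of the wider pathway had the same pattern: Sp5, a WNT target gene, read 6.98 in tumor 5 and 3.51 to 4.61 in the others, and Sostdc1, an antagonist of WNT and BMP, 6.67 and 1.20 to 2.10. Of 7 markers of choroid plexus epithelium, 5 were also highest in tumor 5, and Clic6 (highest in tumor 1, at 9.15 against 8.73 in tumor 5) and Otx2 (highest in tumor 2, at 9.46 against 9.33) were not. Ttr, the transthyretin gene that this epithelium expresses strongly, read 12.16 in tumor 5 and 3.12, 2.14 and 5.70 in tumors 1, 2 and 4. In tumor 5, 6 of the 7 choroid plexus markers lay above the floor, with a summed linear signal of 5831. In the other tumors 2 or 3 did, with 728.7 to 1181. Most of the sum in tumor 5 was Ttr, and without Ttr the sums of tumors 5 and 1 were close. Of these markers, Kcnj13, Folr1 and Kl were above the floor in tumor 5 alone, Clic6 and Otx2 in every tumor, and Aqp1 in none. The part of this epithelium in the Wif1, Sp5 and Sostdc1 signals was not tested.

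**Figure D3:**
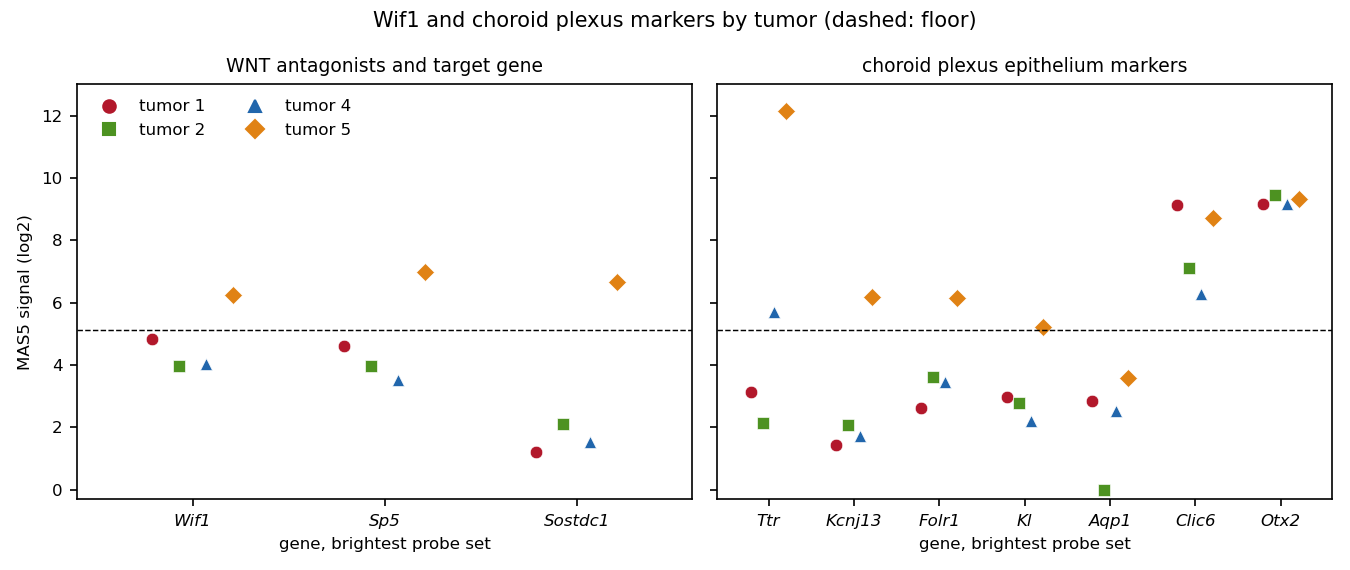
MAS5 signal (log2) by tumor of Wif1, Sp5 and Sostdc1 (left) and of 7 choroid plexus epithelium markers (right), with the floor of 5.12 dashed. Tumor 5 alone lies above the floor for Wif1, Sp5 and Sostdc1, and Ttr reads 12.16 there.

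None of the 5 cytoplasmic components passed in any tumor, and at an unadjusted p under 0.05 Apc was higher in tumor 1 and Dvl2 in tumor 2. Ctnnb1, which encodes beta-catenin, read 11.45, 11.49, 11.75 and 11.74 in tumors 1, 2, 4 and 5, a difference of -0.21 in tumor 1 (SE 0.23, adjusted p = 0.835). Axin1, a scaffold of the destruction complex, read 7.03, 7.19, 7.29 and 7.38. Tumor 1 was the lowest for both genes, in 3 of 3 probe sets of Ctnnb1 and 2 of 2 of Axin1, and the Axin1 difference of -0.26 did not pass either (SE 0.19, adjusted p = 0.730). Apc, the tumor suppressor that holds beta-catenin in the destruction complex, read 9.90 in tumor 1 and 9.32, 9.30 and 9.30 in tumors 2, 4 and 5 on its brightest probe set, 1435543_at. The difference of 0.59 did not pass (SE 0.15, adjusted p = 0.117). The Apc probe set 1420956_at did not share this pattern and read 8.78, 8.97, 8.41 and 8.37, so the probe sets of Apc disagreed on the highest tumor. The Dishevelled genes, which relay the Frizzled signal, were flat (Dvl1, from 9.31 to 9.51) or highest in tumor 2 (Dvl2, at 7.35 against 6.84 to 6.86, adjusted p = 0.795).

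The transcription factors were weakly read. Lef1, a beta-catenin partner and target, read 3.54, 3.87, 3.60 and 3.46 in tumors 1, 2, 4 and 5, under the floor in each. Tcf7l2 read 5.50, 5.14, 4.89 and 4.19, so that it was above the floor in tumors 1 and 2. Its second probe set was under the floor in all 4 tumors, with tumor 1 highest there too (5.09, against 3.78 to 4.69). Tcf7l1, mostly a repressor, spanned 4.93 to 5.21 around the floor. Oligodendrocyte precursors are known to express Tcf7l2 as they mature, and the summed linear signal of 8 oligodendrocyte markers was 4445 in tumor 1 (8 above the floor) and 822.9 to 1313 in the others (4 or 5 above it). Myelin genes such as Mbp (11.59 in tumor 1, 8.04 to 9.59 elsewhere) were higher in tumor 1, whereas the lineage factors Olig2 (7.49, against 8.01 to 8.27) and Sox10 (5.67, against 6.07 to 6.87) were lowest there, and neither of those passed. The part of these cells in the Tcf7l2 signal was not tested.

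The feedback genes were read in every tumor, and Nkd1 was the one that varied most. Nkd1, which binds Dishevelled and dampens the pathway, read 7.95 in tumor 1 and 8.55, 8.44 and 8.52 in tumors 2, 4 and 5. A second probe set, 1417278_a_at, read 7.41, 8.18, 8.05 and 8.15. Tumor 1 was lowest in all 4 Nkd1 probe sets, of which 2 were above the floor throughout, but the difference of -0.56 did not pass (SE 0.16, adjusted p = 0.169). Axin2, the most general WNT target, read 5.77, 5.97, 6.05 and 5.91, a range of 0.29 and a difference of -0.21 in tumor 1 (SE 0.22, adjusted p = 0.823). Apcdd1, a membrane inhibitor, read 9.26, 9.30, 9.05 and 9.24 on its brightest probe set, and the tumor order differed among its 5 probe sets above the floor. Tnfrsf19, a receptor of the TNF family and a WNT target, read 5.93, 5.71, 6.01 and 6.19 on its brightest probe set. Its probe sets 1425212_a_at (3.50 to 4.16) and 1415921_a_at (3.07 to 3.95) were under the floor in every tumor. Axin2, Apcdd1 and Lef1 also respond to WNT in brain endothelium, of which 3 of 8 markers lay above the floor in each tumor, with a summed linear signal of 299.2 to 392.2 and Cdh5, Flt1, Kdr, Tek and Tie1 under the floor in all.

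**Figure D4:**
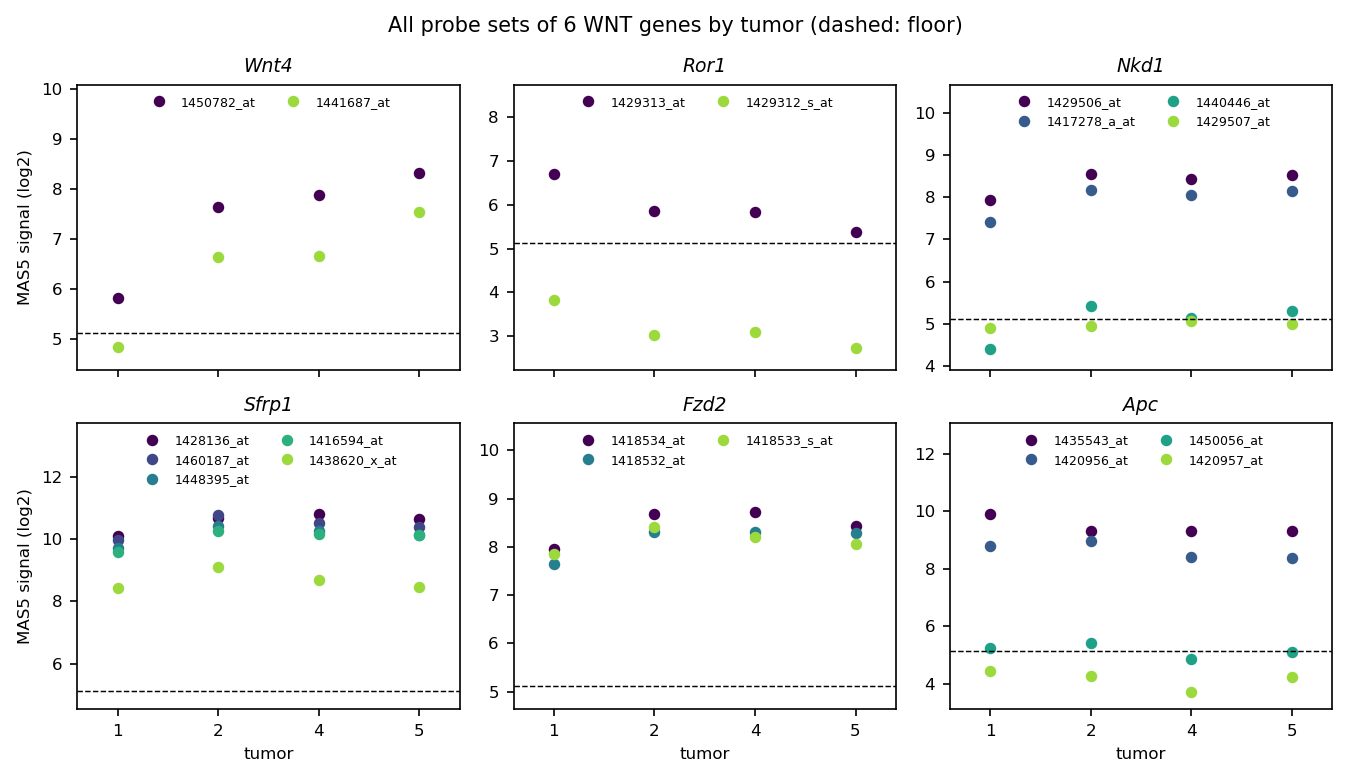
MAS5 signal (log2) of every probe set of Wnt4, Ror1, Nkd1, Sfrp1, Fzd2 and Apc in the 4 tumors, with the floor of 5.12 dashed; probe sets of a gene are not independent replicates. Tumor 1 is lowest in all probe sets of Wnt4, Nkd1, Sfrp1 and Fzd2 and highest in both of Ror1, and the Apc probe sets disagree.

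Across the members above the floor in all 4 tumors, tumor 1 held the lowest value in 12 of 25 genes, tumor 5 in 7, tumor 4 in 4 and tumor 2 in 2. Of all 9212 genes above the floor throughout, tumor 1 was lowest in 30.8%, tumor 5 in 22.4%, tumor 4 in 17.9% and tumor 2 in 29%. The highest value fell in tumor 1 for 6 members (23.9% of all 9212 genes), in tumor 2 for 7 (26.4%), in tumor 4 for 8 (19%) and in tumor 5 for 4 (30.7%). For 11 genes with 2 or more probe sets above the floor throughout, all probe sets gave the same lowest tumor in 7, and this was tumor 1 in 6: Axin1, Ctnnb1, Fzd2, Nkd1, Ryk and Sfrp1. The same highest tumor was given by all probe sets in 2 of the 11. Over 3778 genes with several such probe sets, the lowest tumor was shared in 40.2%, was tumor 1 in 15.1%, and the highest was shared in 43.8%. The SD over the 4 tumors had a median of 0.21 over the 22 members kept and 0.17 over all 8498 genes, and 13 of the 22 lay above the latter. Wnt4, with an SD of 1.10, stood at the percentile 99.6 of all genes and Ror1, with 0.55, at 97.1, whereas Axin2 (27), Apcdd1 (22.9) and Dvl1 (18.3) lay in the lower part. Between pairs of tumors, 2-fold differences among the members were those of Wnt4 between tumor 1 and each other tumor (1 of 22 against tumor 2 and against tumor 4, where 2.52% and 2.45% of all genes differed that much) and of Wnt4 and Ror1 between tumors 1 and 5 (2 of 22, against 3.13%). No member was 2-fold apart between tumors 2 and 4 (0.424% of all genes), 2 and 5 (1.27%) or 4 and 5 (0.459%).

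The other genes of the pathway, 57 in the table and 38 kept by the filter, had no passing gene in any tumor by limma. Of the 38, 2, 1, 0 and 2 had an unadjusted p under 0.05 in tumors 1, 2, 4 and 5. The shares of all genes were 11.2%, 5.84%, 0.553% and 3.6%. In tumor 1, 16 were higher and 22 lower, with a median difference of -0.014. Of all 8498 genes, 3713 were higher there and 4785 lower, with a median of -0.036. Porcn, the enzyme that attaches the lipid to WNT proteins, came closest. It read 7.27 in tumor 1 and 5.78, 6.13 and 6.20 in tumors 2, 4 and 5, without overlap, a difference of 1.23 (SE 0.24, adjusted p = 0.0503). Of the 5 genes for WNT secretion and R-spondins, Notum, Rspo2 and Rspo3 were under the floor in all 4 tumors. Of the 14 destruction complex genes and regulators 13 were above the floor in every tumor, the widest range being that of Amer1, an APC-binding inhibitor of the pathway, at 6.32, 6.45, 5.92 and 5.86 in tumors 1, 2, 4 and 5, and of 13 nuclear cofactors 12 were. Bcl9l, a beta-catenin coactivator, had the widest range of these cofactors, at 6.34, 6.08, 5.69 and 5.52 in tumors 1, 2, 4 and 5. Prickle2, of the planar polarity branch, was above the floor in 3 tumors and was highest in tumor 1 (6.42) and lowest in tumor 5 (4.97).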

How the data were processed

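Per the labels' protocols, RNA of milled frozen tumor tissue was extracted with TRIzol and passed through a silica column. The deposited values are log2 signals, which the submitters' processing notes attribute to MAS5; neither the version nor the target of its scaling was stated there. MAS5 subtracts background, so low signals are noisy on the log scale, and the values carry no detection calls. The table used here held 29304 probe sets, 61 of them controls. Values were used as deposited, raised to a floor (median over arrays of the 40th percentile), filtered on the mean signal (cutoff at the median over probe sets), and reduced to the brightest probe set per gene. Each tumor was compared with the other 3 in limma 3.58.1 (R 4.3.3; lmFit, and eBayes with an intensity trend; Benjamini-Hochberg adjustment over 8498 genes), which was tested on simulated data. The lone tumor is assumed to vary like the other 3, which the simulated data, drawn with the same spread for every tumor, could not test. Nothing used here says whether tumors share a litter or batch, so p-values measure the spread between these arrays, whose number limits precision. Members, lists and named genes (those that passed, the widest and narrowest ranges of each role, fixed effectors and feedback genes, and those with disagreeing probe sets) were chosen with earlier results of these data known. Fzd1, Fzd6 and Fzd10 were named after their values were seen. Alternatives were the floor, filter, probe set choice, normalization, variance prior and leaving out tumors.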

Additional observations from a re-analysis of the deposited data

Results flagged for a closer look

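Among 29 named members with a range above 0, 5 had a tumor far from the other 3, with a ratio of the gap to the nearest tumor over the whole range above Dixon's critical value for 4 samples. Chance nominally flags about 1 in 20, a rate that does not hold for genes named for a wide range or with tumors sharing the floor value. Values were first raised to the floor. Over all members with a range above 0 the count was 6 of 32 (18.8%), beside 10.7% of all such genes, and over those above the floor in all 4 tumors 2 of 25 (8%), beside 5.26%. For Apc the ratio was 0.963, with tumor 1 highest on the brightest probe set and another Apc probe set not sharing the pattern. For Dvl2 it was 0.949, with tumor 2 highest in both probe sets. For Tcf7l2 it was 0.942, with tumor 1 highest and 2 tumors at the floor. For Wif1, highest in tumor 5, and for Wnt7a, highest in tumor 1, it was 1, since the other 3 tumors were at the floor.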

How the results depend on the processing

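The count of members passing in tumor 1 was 1 (Wnt4) and became 0 with no filter on the mean. It was also 0 with that filter raised to the 75th percentile, where 12 members were left and Wnt4 was not among them. Over all genes, 98 of 13320 passed with no filter and 29 of 4619 at the 75th percentile, beside 110 of 8498 in the main fit. Leaving out tumor 2 brought in Ror1 as well, where 202 of all 8498 genes passed. Fits that leave out a tumor have only 2 tumors to compare with, so a pass or a lower p there is not stronger evidence. The Wnt4 difference ranged from -1.94 without tumor 5 to -2.27 without tumor 2. Wnt4 did not pass with no filter (adjusted p = 0.194). It passed in the other alternatives that kept it, quantile normalization included (adjusted p = 0.0214). In tumor 5 the count of 0 became 1 (Wif1) with no filter on the mean, where 6 of all 13320 genes passed. Counts for tumors 2 and 4 stayed at 0 in every alternative run. The number of members above the floor in all tumors was 25 and ranged from 17 with the floor at the 50th percentile to 33 with it at the 25th. With no filter the median difference of members in tumor 1 was 0, since many genes then lie at the floor. No paired analysis was possible because the labels give a single group.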
